A study of Trichoderma cf. simile with 24 samples.

Results

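At 3 days after addition, mycelium of the fungus Trichoderma cf. simile WF8 given 9,10-dibutoxyanthracene was set against mycelium given phenetole, with 3 flasks on each side. These 6 libraries of the 24 in the series were chosen by their labels alone, and all 13298 loci of the count table were considered. The series covers 4 culture types at 1 and 3 days. The other culture types, a control without a model compound and cultures given 4-phenoxybenzoic acid, serve below as reference levels.

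All cultures of the WF8 strain, isolated from decaying wood, were grown in the dark for 60 h in 100 mL of Sabouraud maltose broth (40 g/L maltose, 10 g/L peptone) in 250 mL flasks at 29 °C and 180 rpm before the additions. 9,10-Dibutoxyanthracene was added at 5 mg/L from a dichloromethane stock of 0.2 g/L, which corresponds to 2.5% of the culture volume. Phenetole, a liquid, was added undiluted at 200 mg/L, a mass concentration 40 times that of 9,10-dibutoxyanthracene, and 4-phenoxybenzoic acid was added at 10 mg/L from a dichloromethane stock, which corresponds to 5% of the volume. The stated purity was 95% for 9,10-dibutoxyanthracene and 99% for phenetole. Compound, dose, purity and solvent therefore differed together between the compared cultures and cannot be told apart. Copper, manganese and veratryl alcohol are named in the treatment protocol as further additions, and the sources used here do not give whether the control received these or the solvent. The labels number the flasks of a group from 1 to 3, but state neither whether these were started independently nor whether a number stands for 1 flask sampled at both days. The p-values therefore measure only the spread between these samples, which may be technical, and tests between days treat the samples of both days as separate.

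Trichoderma species are filamentous ascomycetes that live on wood, soil organic matter and other fungi, and they are known for secreting large amounts of hydrolytic enzymes. Lignite, or brown coal, is a low-rank coal rich in aromatic rings joined by ether bonds, and simple aromatic ethers are used as model compounds for it. Phenetole is a benzene ring carrying an ethoxy group, and 9,10-dibutoxyanthracene is a fused, 3-ringed aromatic hydrocarbon carrying a pair of butoxy groups. Fungi are known to oxidise such molecules with laccases, peroxidases and cytochrome P450 monooxygenases and to export or conjugate the products.

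The count table identifies loci by number, and 0 of its IDs are paired with a name or a product, so enzyme families could not be followed and the labelled tissue could not be checked against marker genes. Loci are therefore described by their ID, length and level. Levels within a locus are given in CPM, in which the reads of a locus are divided by the effective size of its library (the total times a TMM factor). Levels between loci are given in the deposited FPKM, which are also divided by locus length. Of the loci listed, 12486 are numbered gene models and 812 lie outside them. After loci with low counts were removed, 10842 loci were tested, 10197 models and 645 loci outside.

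The 24 libraries held 16767477 to 19842379 counts each. At day 3 the flasks of the 9,10-dibutoxyanthracene group correlated with each other at 0.976 to 0.982 over loci and the phenetole flasks at 0.960 to 0.962, and flasks of different groups correlated at 0.849 to 0.915. The median SD of a locus between flasks was 0.25 on the log2 scale with 9,10-dibutoxyanthracene and 0.32 with phenetole. The 10 most abundant loci took 9.94% ± 1.12 of the counts with 9,10-dibutoxyanthracene and 13.1% ± 2.84 with phenetole (SD, n = 3, exact two-sided permutation test p = 0.2). The number of loci with a count was 11506 ± 83.0 against 11303 ± 107 (SD, n = 3, exact permutation p = 0.2), and 3 flasks against 3 cannot give a p below 0.1.

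The first comparison asked how the mycelium differed between the compounds at day 3. With 9,10-dibutoxyanthracene, 2064 loci were higher and 2178 were lower than with phenetole, together 39.1% of the loci tested (19% higher and 20.1% lower, edgeR quasi-likelihood test with Benjamini-Hochberg adjusted p under 0.05). Among them, 1718 were at least 2-fold higher and 1569 at least 2-fold lower, and 164 and 95 differed at least 16-fold. The median size of a called difference was 1.58 on the log2 scale, while the median over all loci tested was -0.02. Of the called loci, 2024 higher and 2087 lower ones had no overlap between the flasks of the groups. Over all loci tested, 28.7% had every 9,10-dibutoxyanthracene flask above every phenetole flask and 29.1% had every one below.

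**Figure D1:**
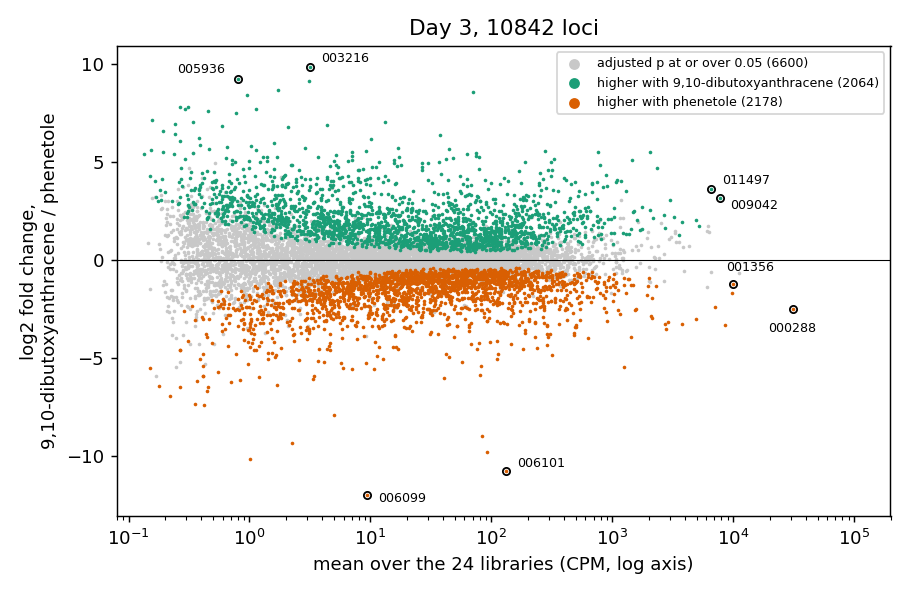
Each point is a locus at day 3, with its mean level over the 24 libraries on the x axis (CPM, log axis) and its log2 fold change of 9,10-dibutoxyanthracene over phenetole on the y axis. Green marks the 2064 loci that were higher, orange the 2178 that were lower, grey the 6600 that did not pass, and rings mark loci described in the text by the last digits of their ID.

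The called loci were found at every level of abundance and length. Of 4 equal classes by mean level, the lowest had 19.3% higher and 12% lower loci and the highest 21.1% and 24%. Of 4 classes by length, the shortest, up to 960 bp, had 19.2% higher and 15.3% lower loci and the longest 19.7% and 21.7%. Lower calls thus had their smallest share among rare and short loci, while the share of higher calls stayed between 16.5% and 21.1% over the level classes.

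The loci outside the gene models leaned towards 9,10-dibutoxyanthracene. Of these 645 loci, 205 were higher with 9,10-dibutoxyanthracene (31.8%) and 55 were lower (8.53%), with a median log2 fold change of 0.81. Of the gene models, 18.2% were higher and 20.8% lower, with a median of -0.06. At day 1 the same loci did not lean upwards, with 14.9% higher, 21.1% lower and a median of -0.19. Under the alternative settings the share that was higher at day 3 ranged from 22.5% to 42.3%, the lowest without the third phenetole flask. The loci outside the models took 1.84% ± 0.288 of all counts with 9,10-dibutoxyanthracene and 1.66% ± 0.308 with phenetole (SD, n = 3, exact permutation p = 0.5), so their summed share did not differ beyond the spread between flasks.

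Set beside the control at day 3, 9,10-dibutoxyanthracene differed at 1740 loci (16% of those tested by edgeR), of which 568 were higher (5.24%) and 1172 lower (10.8%). Phenetole differed from the control at 371 loci (3.42%), of which 165 were higher (1.52%) and 206 lower (1.9%). 4-Phenoxybenzoic acid differed at 8 loci (0.0738%), 4 in each direction (0.0369%), against 1093 at an unadjusted p under 0.05. These comparisons share the control libraries with each other and the treated libraries with the direct comparison, so their values are given side by side only. Over the 2064 loci that were higher with 9,10-dibutoxyanthracene than with phenetole, the median log2 difference from the control was 0.93 for 9,10-dibutoxyanthracene and -0.81 for phenetole. Over the 2178 lower loci the medians were -0.92 and 0.46. Over all loci tested the medians were -0.02 and -0.01. The medians of both lists lay on opposite sides of the control for the 2 compounds, which choosing the lists by the direct comparison favours.

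Presence in all flasks of a group and absence from the other was rare. At 10 loci every 9,10-dibutoxyanthracene flask had at least 10 counts and the phenetole flasks had 0, and at 5 loci the reverse held. The 10 loci had a median level of 1.39 CPM in the group where they were present, and the 5 loci one of 4.31 CPM. The control flasks were at 0 counts at 0 of the 10 and at 1 of the 5.

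By fitted fold, the rule for named loci gave Trisim1_003216 and Trisim1_005936 among the loci that were higher with 9,10-dibutoxyanthracene. Both had 0 counts with phenetole, so their fitted values depend on the prior count and their order among the higher loci is not a measured one. Trisim1_003216 (1604 bp) was measured at 8.96, 4.11 and 4.74 CPM in the 3 flasks given 9,10-dibutoxyanthracene and had 0 counts in all 3 phenetole flasks. In the control it was at 4.46, 22.6 and 4.21 CPM, and in the 4-phenoxybenzoic acid flasks at 0.449, 2.61 and 1.61 CPM. The phenetole flasks thus stood below every other flask of day 3, while the flasks given 9,10-dibutoxyanthracene overlapped the control flasks. Trisim1_003216 was at least 117-fold higher with 9,10-dibutoxyanthracene than with phenetole, with the empty group set to a floor of 3 counts (edgeR adjusted p = 0.000749), or at least 71.8-fold without the first phenetole flask. Against the control, phenetole was at least 211-fold lower (adjusted p = 0.0054), or at least 85.6-fold without the second control flask, which held most of the control counts (adjusted p = 0.0226). For 9,10-dibutoxyanthracene the log2 difference from the control was -0.81 ± 0.96 (SE, adjusted p = 0.595).

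Trisim1_005936 (2164 bp) was at 3.25, 1.64 and 7.04 CPM with 9,10-dibutoxyanthracene and at 0 counts in the phenetole and the 4-phenoxybenzoic acid flasks. In the control it had 3 counts, all in the third flask. It was detected in every flask given 9,10-dibutoxyanthracene and in only 1 other flask of that day. The difference from phenetole was at least 73.0-fold (edgeR adjusted p = 0.00781), and the call was lost with DESeq2 (adjusted p = 0.067). The fitted log2 value of 9.24 fell to 8.57 without the third flask given 9,10-dibutoxyanthracene, and the bound was then at least 47.3-fold. Without the first phenetole flask it was at least 44.95-fold. Against the control it was 72.0-fold higher, with a counting interval of 24.3 to 352 (95%, exact, edgeR adjusted p = 0.0387). That call was lost whichever flask was left out, with adjusted p between 0.0534 and 0.129, and the fitted log2 value of 5.99 became 5.33 without the first control flask, 5.39 without the second, 9.27 without the third and 5.29 without the third flask given 9,10-dibutoxyanthracene.

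In the other direction the rule gave Trisim1_006099 and Trisim1_006101, and the model numbered between them, Trisim1_006100, was named for both days. Trisim1_006101 (4518 bp) was at 346, 256 and 747 CPM with phenetole and at 0.112, 0.257 and 0.406 CPM with 9,10-dibutoxyanthracene. Its control flasks stood at 0.953, 3.72 and 2.42 CPM, and the 4-phenoxybenzoic acid flasks at 21.8, 120 and 185 CPM. All 3 phenetole flasks lay above all others, and all 3 flasks given 9,10-dibutoxyanthracene lay below all control flasks. The difference was 1776-fold, with a log2 value of -10.77 ± 0.94 (SE, edgeR adjusted p = 6.83e-07). Against the control, Trisim1_006101 was higher with phenetole by 7.58 ± 0.78 on the log2 scale (adjusted p = 4.01e-05) and with 4-phenoxybenzoic acid by 5.53 ± 0.72 (adjusted p = 0.00174), or by 4.91 without the third 4-phenoxybenzoic acid flask. With 9,10-dibutoxyanthracene it was below the control by a log2 value of -3.19 ± 0.84 (adjusted p = 0.0146). That last call was lost without the second control flask (adjusted p = 0.0686) and without the first (0.0546) or second (0.0626) flask given 9,10-dibutoxyanthracene.

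The 2 shorter models next to it were also highest with phenetole. Trisim1_006099 (462 bp) was at 18.1, 21.9 and 40.3 CPM with phenetole, and the flasks given 9,10-dibutoxyanthracene and the control flasks had 0 counts. Trisim1_006100 (384 bp) was at 141, 212 and 236 CPM with phenetole and at 0.56, 0 and 0.0677 CPM with 9,10-dibutoxyanthracene. With 4-phenoxybenzoic acid Trisim1_006099 was at 0.0816, 11.8 and 7.27 CPM and Trisim1_006100 at 2.37, 92.4 and 56.9 CPM. In both models the phenetole flasks exceeded every flask of the other culture types, the flasks given 9,10-dibutoxyanthracene did not separate from the control, and the first 4-phenoxybenzoic acid flask was far below the other two. Trisim1_006099 was at least 454-fold lower with 9,10-dibutoxyanthracene than with phenetole (edgeR adjusted p = 0.000149), and at least 299-fold and 285-fold without the first or the second flask given 9,10-dibutoxyanthracene. Trisim1_006100 was 910-fold lower, with a log2 value of -9.82 ± 1.16 (SE, adjusted p = 7.54e-06). Nearly all of its counts with 9,10-dibutoxyanthracene came from the first flask, and without that flask the log2 value was -12.42. Without the second flask it was -9.19.

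Per length, Trisim1_006100 had a mean of 498 FPKM with phenetole at day 3, Trisim1_006101 97.3 FPKM and Trisim1_006099 56.6 FPKM. Their means with 9,10-dibutoxyanthracene were 0.55, 0.0577 and 0 FPKM. Trisim1_006102, the next model, went the other way, with a mean of 57.8 CPM with 9,10-dibutoxyanthracene and 11.9 CPM with phenetole (log2 2.29 ± 0.57, SE, n = 3, edgeR adjusted p = 0.00405), and without the third phenetole flask the log2 value was 2.96. It was picked out after its values were seen.

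**Figure D2:**
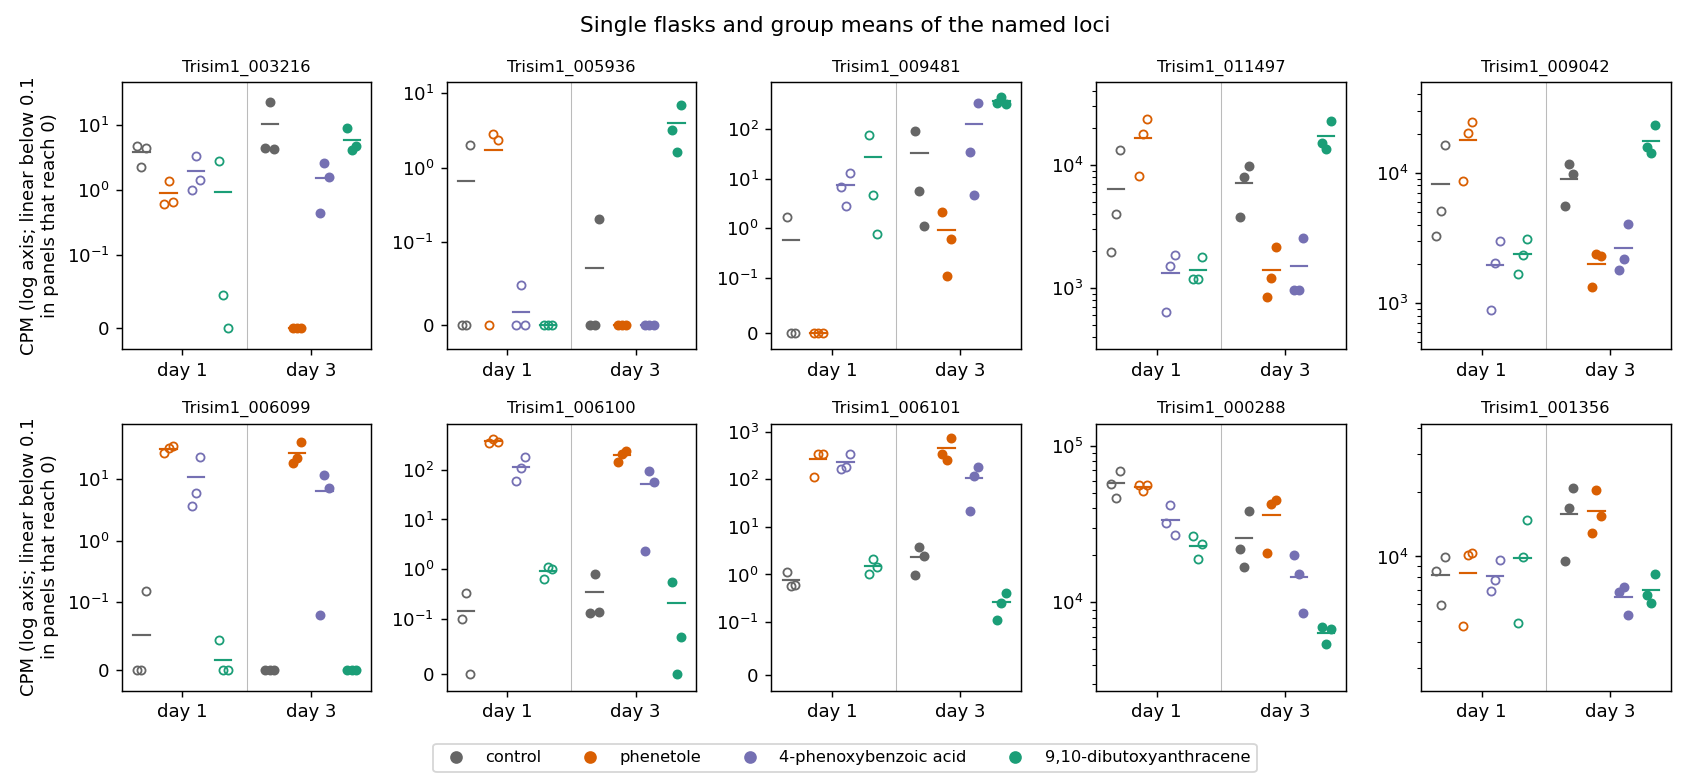
Levels of 10 named loci in all 24 flasks (CPM, log axis, linear below 0.1 in panels that reach 0), by culture type and day, with open symbols for day 1, filled symbols for day 3 and bars for group means. The top row holds loci that were higher with 9,10-dibutoxyanthracene than with phenetole at day 3 and the bottom row loci that were lower, and in each panel the 3 filled symbols of these groups do not overlap.

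The abundant loci gave smaller folds but moved a larger part of the transcriptome. Trisim1_011497 (1731 bp) was at 15136, 13426 and 22845 CPM with 9,10-dibutoxyanthracene and at 847, 1211 and 2162 CPM with phenetole. The control flasks were at 3766, 7936 and 9769 CPM, and the 4-phenoxybenzoic acid flasks at 968, 956 and 2571 CPM. Flasks given 9,10-dibutoxyanthracene were the highest of day 3, the control flasks were intermediate, and the phenetole and 4-phenoxybenzoic acid flasks were lowest and overlapped. Trisim1_011497 was 12.2-fold higher with 9,10-dibutoxyanthracene than with phenetole (log2 3.61 ± 0.69, SE, edgeR adjusted p = 0.000513). It took 1.56% ± 0.277 of all counts with 9,10-dibutoxyanthracene and 0.146% ± 0.0583 with phenetole (SD, n = 3). Against the control neither compound passed the threshold, with adjusted p = 0.177 for 9,10-dibutoxyanthracene (log2 1.26 ± 0.63) and 0.0502 for phenetole (log2 -2.35 ± 0.65). Without the first control flask the phenetole value passed (log2 -2.65, adjusted p = 0.0415).

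Trisim1_009042 (4009 bp) was also highest with 9,10-dibutoxyanthracene. Its flasks were at 15699, 14096 and 23362 CPM with 9,10-dibutoxyanthracene, at 1338, 2363 and 2313 CPM with phenetole and at 5547, 11646 and 9722 CPM in the control. No phenetole flask reached the lowest control flask, and no control flask reached the lowest flask given 9,10-dibutoxyanthracene. The difference between the compounds was 8.84-fold (log2 3.14 ± 0.62, SE, edgeR adjusted p = 0.00066). Against the control, phenetole was lower by a log2 value of -2.16 ± 0.60 (adjusted p = 0.0475), a call that was lost when any flask but the first control flask was left out (adjusted p between 0.0913 and 0.147). 9,10-dibutoxyanthracene did not pass the threshold against the control (log2 0.98 ± 0.58, adjusted p = 0.25). Trisim1_009042 took 1.61% ± 0.265 of counts with 9,10-dibutoxyanthracene and 0.211% ± 0.0468 with phenetole (SD, n = 3). Per length, Trisim1_011497 had a mean of 9990 FPKM and Trisim1_009042 one of 4460 FPKM with 9,10-dibutoxyanthracene.

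Trisim1_000288 (908 bp) had the largest difference in mean CPM among the lower loci that met the rule. It was at 20764, 42270 and 45092 CPM with phenetole and at 6948, 5450 and 6789 CPM with 9,10-dibutoxyanthracene. The control flasks were at 22046, 16784 and 38289 CPM and the 4-phenoxybenzoic acid flasks at 20200, 15179 and 8516 CPM. Flasks given 9,10-dibutoxyanthracene lay below all other flasks of day 3, and the phenetole and control flasks overlapped. Trisim1_000288 was 5.50-fold lower with 9,10-dibutoxyanthracene than with phenetole (log2 -2.49 ± 0.47, SE, edgeR adjusted p = 0.00048). It took 3.77% ± 1.14 of all counts with phenetole and 0.592% ± 0.0835 with 9,10-dibutoxyanthracene (SD, n = 3). Against the control, 9,10-dibutoxyanthracene was lower by a log2 value of -2.01 ± 0.46 (adjusted p = 0.00738), and for phenetole the value was 0.49 ± 0.45 (adjusted p = 0.594).

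Trisim1_001356 (2441 bp) was at 12899, 20376 and 15433 CPM with phenetole and at 6611, 6045 and 8323 CPM with 9,10-dibutoxyanthracene. The control flasks were at 9486, 16792 and 20886 CPM, close to the phenetole flasks, and the 4-phenoxybenzoic acid flasks, at 6788, 7206 and 5314 CPM, overlapped those given 9,10-dibutoxyanthracene. The difference was 2.32-fold (log2 -1.22 ± 0.44, SE, edgeR adjusted p = 0.0327). This call was lost when any flask but the first phenetole flask was left out, with adjusted p between 0.0546 and 0.114.

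The next question was whether the difference between the compounds at day 3 was already present at day 1, in other libraries. The day 1 phenetole libraries differed in composition from those given 9,10-dibutoxyanthracene. TMM factors were 0.76, 0.62 and 0.63 with phenetole and 1.19, 1.14 and 1.03 with 9,10-dibutoxyanthracene. The 100 most abundant loci held 42.8%, 43.7% and 42.9% of counts against 28.2%, 27.8% and 30.7%. The median SD of a locus between flasks was 0.495 against 0.309 on the log2 scale. What this added to the day 1 calls and to the change between days was not tested. At day 1, 2622 loci were higher and 2561 lower with 9,10-dibutoxyanthracene than with phenetole, 47.8% of the loci tested (24.2% and 23.6%). The difference itself changed between the days at 4665 loci (43% of those tested by edgeR's quasi-likelihood test of the difference between days). In 2150 of them (19.8%) it moved upwards from day 1 to day 3 and in 2515 (23.2%) downwards.

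The calls of day 3 were then sorted by the call of day 1. The direction was the same at 1182 loci, which make up 27.9% of the day 3 calls and 22.8% of the day 1 calls, 459 of them higher and 723 lower. The direction was opposite at 1037 loci, 24.4% of the day 3 calls and 20% of the day 1 calls. Of these, 581 were lower with 9,10-dibutoxyanthracene at day 1 and higher at day 3, and 456 went from higher to lower. The remaining 2023 day 3 calls were not called at day 1. Of the loci higher at day 3, 22.2% were higher and 28.1% lower at day 1, beside 24.2% and 23.6% of all loci tested. Of the loci lower at day 3, 33.2% were lower and 20.9% higher at day 1. Apart from the share lower at both days, these shares lay within 5 percentage points of those over all loci. The count of opposite calls was sensitive to single flasks, and it was 693 without the third flask given 9,10-dibutoxyanthracene at day 3 and 1240 without the first phenetole flask of day 1.

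**Figure D3:**
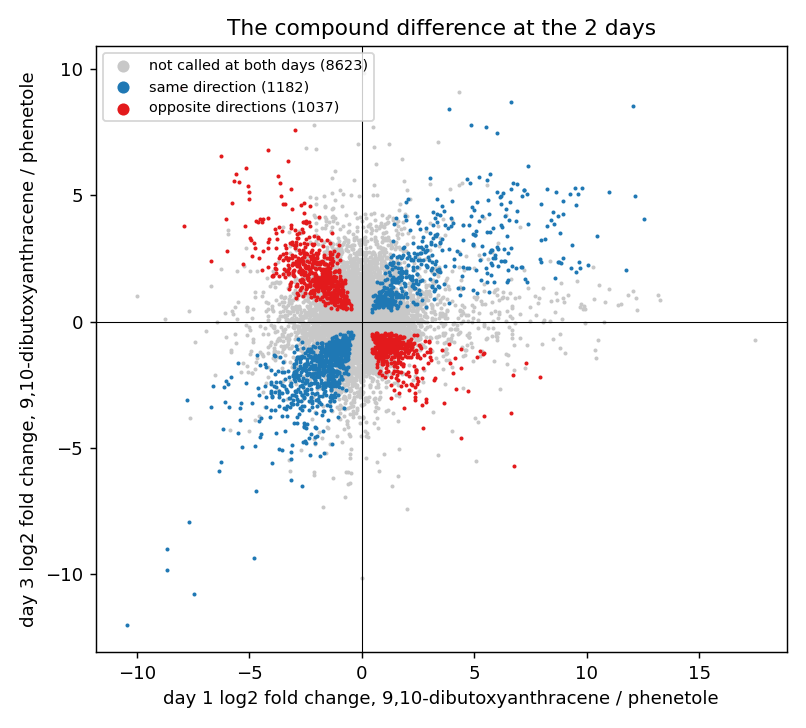
Each point is a locus, with the log2 fold change of 9,10-dibutoxyanthracene over phenetole at day 1 on the x axis and at day 3 on the y axis. Blue marks the 1182 loci whose calls had the same sign at both days, red the 1037 with opposite signs, and grey the 8623 that were not called at both.

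The medians against the control of each day show how the opposite loci were placed, although these values share libraries with the calls that chose the loci. Over the 581 loci that went from lower to higher, the median log2 difference from the day 1 control was 1.36 for phenetole and -0.52 for 9,10-dibutoxyanthracene. At day 3 it was -0.77 for phenetole and 0.96 for 9,10-dibutoxyanthracene. Over the 456 loci that went from higher to lower, the medians at day 1 were -0.89 for phenetole and 0.40 for 9,10-dibutoxyanthracene, and at day 3 they were 0.37 and -0.67. In both lists the medians of both compounds changed sides relative to the control of the same day. Choosing the loci by opposite calls favours such a swap, so it is a description only.

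Trisim1_011497 and Trisim1_009042 were among the loci that changed direction. At day 1 Trisim1_011497 was at 8085, 17863 and 23411 CPM with phenetole and at 1193, 1184 and 1792 CPM with 9,10-dibutoxyanthracene. The day 1 phenetole flasks and the day 3 flasks given 9,10-dibutoxyanthracene covered overlapping ranges, and so did the 2 low groups. The day 1 difference was 11.6-fold in favour of phenetole (log2 -3.57 ± 0.69, SE, edgeR adjusted p = 0.000302). The difference between days was 7.17 ± 0.97 on the log2 scale (adjusted p = 1.24e-05). Trisim1_009042 was 7.49-fold higher with phenetole at day 1 (log2 -2.92 ± 0.61, SE, adjusted p = 0.000645), and its difference between days was 6.07 ± 0.87 (adjusted p = 2.18e-05). In the control neither locus passed the test between days, with log2 changes of 0.17 ± 0.62 (adjusted p = 0.882) and 0.13 ± 0.57 (adjusted p = 0.902).

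For the change upwards between days the rule gave Trisim1_005936 and Trisim1_002681, by fitted values that rest on groups at 0 counts and so do not measure the size of the change. At day 1 Trisim1_005936 was at 0, 2.81 and 2.35 CPM with phenetole and at 0 counts in every flask given 9,10-dibutoxyanthracene. At day 3 its counts were thus found with the other compound. At day 1 it was at least 34.5-fold higher with phenetole (edgeR adjusted p = 0.0137), and the difference between days had an adjusted p of 0.000987. The day 1 call was lost with DESeq2 (adjusted p = 0.102). Its bound was at least 54.7-fold without the first phenetole flask, 22.0-fold without the second, and 22.2-fold and 22.4-fold without the first or the second flask given 9,10-dibutoxyanthracene. The short locus Trisim1_002681 (94 bp) had 11, 11 and 10 counts with 9,10-dibutoxyanthracene and 0 with phenetole at day 3, and 0 with 9,10-dibutoxyanthracene and 8, 2 and 8 with phenetole at day 1. It was at least 12.0-fold higher with 9,10-dibutoxyanthracene at day 3 (adjusted p = 0.0177) and at least 10.5-fold higher with phenetole at day 1 (adjusted p = 0.0185). These are few counts, and the bounds cover counting error only. Without the first phenetole flask the day 3 bound was at least 7.41-fold. The day 1 bound was at least 6.78-fold without the first flask given 9,10-dibutoxyanthracene and 6.83-fold without the second, where the call was lost (adjusted p = 0.0506).

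For the change downwards the rule gave Trisim1_009499 (6992 bp), whose day 1 difference had narrowed by day 3. At day 1 it was at 2860, 3052 and 2015 CPM with 9,10-dibutoxyanthracene and at 0.903, 1.24 and 0.0942 CPM with phenetole. At day 3 it was at 3786, 3226 and 3616 CPM with 9,10-dibutoxyanthracene and at 1645, 495 and 434 CPM with phenetole. The flasks given 9,10-dibutoxyanthracene were high at both days, and the phenetole flasks were close to 0 at day 1 and within an order of magnitude of the others at day 3. The difference was 3448-fold at day 1 (log2 11.75 ± 1.15, SE, edgeR adjusted p = 2e-07) and 3.84-fold at day 3 (log2 2.05 ± 0.75, adjusted p = 0.0349). The day 3 call was lost in 5 of 6 fits that left out a flask of the compared groups, with adjusted p between 0.0585 and 0.128, and without the first phenetole flask the log2 value was 2.93. The difference between days was -9.71 ± 1.23 (adjusted p = 6.54e-06). It was -8.83 without the first day 3 phenetole flask, and limma gave -6.03 on log2(FPKM + 1) and -8.53 on log2(FPKM + 0.1), all with the call kept. In the control Trisim1_009499 rose from 62.8, 6.65 and 3.31 CPM at day 1 to 2051, 2087 and 2051 CPM at day 3 (log2 6.41 ± 0.91, adjusted p = 3.83e-05), and without the first day 1 control flask the log2 value was 8.69 (adjusted p = 5.29e-07).

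The rule also gave a locus of 950 bp outside the gene models, again by a fitted value that rests on a group at 0 counts. At day 3 it had 57, 16 and 182 counts with phenetole and 1, 6 and 11 with 9,10-dibutoxyanthracene, and at day 1 it had 0 with phenetole and 34, 7 and 1 with 9,10-dibutoxyanthracene. The flasks of a group differed several-fold from each other, and the third phenetole flask held most of the day 3 counts. At day 3 it was 12.5-fold lower with 9,10-dibutoxyanthracene (log2 -3.61 ± 1.11, SE, edgeR adjusted p = 0.016), and the call was lost without that phenetole flask (log2 -2.22, adjusted p = 0.131). It was also lost without the first (adjusted p = 0.0626) or the second (adjusted p = 0.0588) flask given 9,10-dibutoxyanthracene. Without the third of these flasks the log2 value was -4.55.

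For loci higher with 9,10-dibutoxyanthracene at both days the rule gave Trisim1_009481 and Trisim1_010200. Trisim1_009481 (502 bp) was at 335, 436 and 322 CPM with 9,10-dibutoxyanthracene and at 2.08, 0.111 and 0.603 CPM with phenetole at day 3. Control flasks ranged over 90.9, 5.58 and 1.11 CPM and the 4-phenoxybenzoic acid flasks at 34.1, 4.71 and 338 CPM. The compared groups were far apart, while the control flasks overlapped the phenetole flasks at the low end and the 4-phenoxybenzoic acid flasks overlapped the 9,10-dibutoxyanthracene flasks at the high end. The day 3 difference was 362-fold (log2 8.55 ± 2.07, SE, edgeR adjusted p = 0.0036), and without the first phenetole flask its log2 value was 9.96. At day 1 Trisim1_009481 was at 77.1, 4.76 and 0.759 CPM against 0 counts with phenetole, at least 352-fold higher (adjusted p = 0.00874). The day 1 call rested on the first flask given 9,10-dibutoxyanthracene. Without it the bound was at least 35.4-fold, the fitted log2 value went from 12.04 to 8.73 and the adjusted p was 0.0843. Leaving out the first day 1 phenetole flask gave a bound of at least 222-fold and leaving out the second 234-fold.

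Trisim1_010200 (360 bp) was at 51.0, 101 and 152 CPM with 9,10-dibutoxyanthracene and at 4.03, 1.67 and 4.06 CPM with phenetole at day 3. The control flasks, at 54.6, 7.93 and 18.6 CPM, lay above every phenetole flask, and the first of them overlapped the 9,10-dibutoxyanthracene group. The difference was 29.7-fold (log2 4.96 ± 1.28, SE, edgeR adjusted p = 0.00547). At day 1 it was at 84.7, 2.07 and 1.41 CPM against 0 counts with phenetole, at least 376-fold higher (adjusted p = 0.000779). The first day 1 flask again held most of the counts, and without it the bound was at least 21.2-fold and the fitted log2 value went from 12.13 to 8.05 (adjusted p = 0.00973). Without the first or the second day 1 phenetole flask the bound was at least 237-fold and 249.6-fold, and without the second day 1 flask given 9,10-dibutoxyanthracene at least 567-fold.

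Trisim1_006099 and Trisim1_006100 were named for loci lower at both days. At day 1 Trisim1_006100 was at 344, 424 and 359 CPM with phenetole and at 0.622, 1.12 and 1.03 CPM with 9,10-dibutoxyanthracene, a 409-fold difference (log2 -8.66 ± 1.05, SE, edgeR adjusted p = 2.07e-06). Separation of the flasks at both days was required by the rule that named it. The difference did not pass the test between days (log2 -1.16 ± 1.39, adjusted p = 0.524). That log2 value was -3.76 without the first day 3 flask given 9,10-dibutoxyanthracene and -0.53 without the second. Trisim1_006099 had 1 count in the day 1 flasks given 9,10-dibutoxyanthracene, in the first of them, and 1101 with phenetole, a 1933-fold difference with a counting interval of 346 to 76416 (95%, exact, edgeR adjusted p = 5.31e-05). Without that flask the group was at 0 counts, the difference was at least 415-fold and the fitted log2 value went from -10.43 to -12.18 (adjusted p = 0.000691). Without the second flask given 9,10-dibutoxyanthracene the ratio was 1252-fold. Trisim1_006101 was 170-fold lower at day 1 (log2 -7.45 ± 0.78, adjusted p = 4.3e-07), and its difference grew by day 3 by a log2 value of -3.32 ± 1.04 (adjusted p = 0.014). This change was -2.69 without the third day 3 phenetole flask (adjusted p = 0.0455), and limma on log2(FPKM + 1) did not call it (log2 -1.03, adjusted p = 0.286), nor on log2(FPKM + 0.1) (log2 -2.16, adjusted p = 0.0533).

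The control time course offers a comparison that shares no library with the day 3 contrast. From day 1 to day 3, 1097 loci rose and 1154 fell in the control, 20.8% of those tested (10.1% and 10.6%). Of the loci that rose, 466 were higher with 9,10-dibutoxyanthracene than with phenetole at day 3 (42.5%) and 81 were lower (7.38%). Of the loci that fell, 531 were lower (46%) and 66 were higher (5.72%). These shares were recomputed without single flasks of the compared groups, and without the control flasks numbered 3 of both days together. The other control flasks were not left out. The share of 42.5% then ranged from 32.8% to 53.6% and that of 46% from 36.9% to 48.7%. The share of 7.38% was 4.39% without the second and 4.76% without the third flask given 9,10-dibutoxyanthracene. Among the 8591 loci not called with time in the control, the shares were 17.8% higher and 18.2% lower. The median log2 fold change of 9,10-dibutoxyanthracene over phenetole was 0.79 over the loci that rose, -0.85 over those that fell and -0.01 over the others. At day 1, 64.4% of the loci that rose were higher with 9,10-dibutoxyanthracene than with phenetole (median log2 1.61). Of those that fell, 63.3% were lower (median log2 -1.32). Both shares were larger than at day 3, beside 24.2% and 23.6% of all loci tested at day 1.

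Loci that rose from day 1 to day 3 in the control were thus more often higher with 9,10-dibutoxyanthracene than all loci tested. Loci that fell there were more often lower. The loci that rose account for 22.6% of all loci higher with 9,10-dibutoxyanthracene, and those that fell for 24.4% of the lower ones, so most day 3 calls were at loci not called with time in the control. Among loci with the same direction at both days the control time course was more prominent. Over the 459 loci higher at both days, 62.1% rose in the control, with a median log2 change of 2.04. Over the 723 lower at both days, 47.9% fell, with a median of -0.97. Over the 581 and 456 loci of opposite direction, the medians in the control were -0.11 and 0.12.

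**Figure D4:**
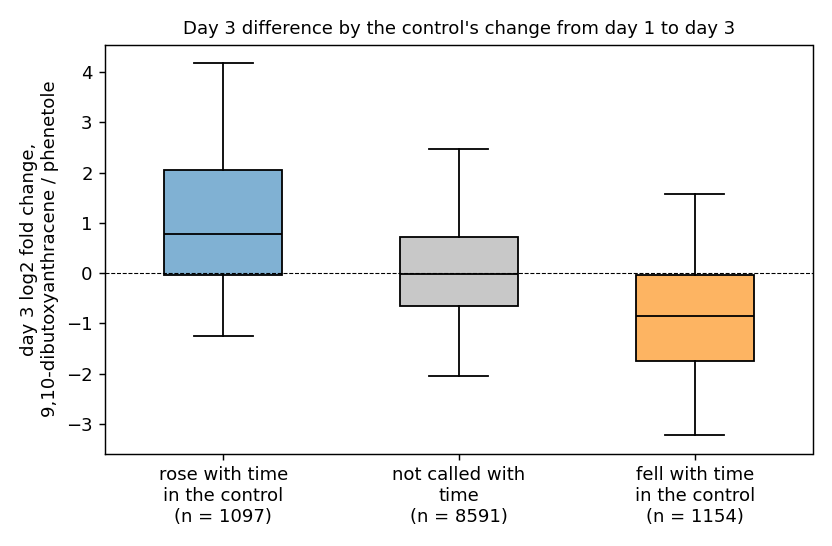
Day 3 log2 fold change of 9,10-dibutoxyanthracene over phenetole (y axis) for loci that rose from day 1 to day 3 in the control, loci not called with time and loci that fell. The line in each box is the median (0.79, -0.01 and -0.85), the box spans the quartiles and the whiskers the 5th to the 95th percentile.

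Called loci also tended to carry neighbouring numbers. After a model that was higher with 9,10-dibutoxyanthracene at day 3, the next-numbered model was higher too in 499 of 1614 cases (30.9%) and lower in 15.6%, while 18.2% of all models tested were higher. After a lower model, the next was lower in 552 of 1820 cases (30.3%) and higher in 11.5%, while 20.8% of all models were lower. The files do not say that the numbers follow the order along the chromosomes, and neighbouring models that overlap could share reads. Runs of 5 or more consecutive models with the same call numbered 10 among the higher loci, holding 53 models, and 10 among the lower loci, holding 60.

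The longest lower runs had 8 models each. The run from Trisim1_002006 to Trisim1_002013 had log2 values between -5.21 and -1.86 at day 3, with a median of -3.27 and edgeR adjusted p between 1.12e-06 and 0.000691. Against the control, 6 of its 8 models were lower with 9,10-dibutoxyanthracene, beside 10.8% of all loci tested, and 4 were higher with phenetole, beside 1.52%. At day 1, 6 of the 8 were lower with 9,10-dibutoxyanthracene than with phenetole, beside 23.6% of all loci, with a median of -1.45. The contrasts with the control share libraries with the comparison that chose the run, so their counts are a description. Trisim1_002009 had the largest difference of the run, at 48.2, 221 and 154 CPM with phenetole, 5.71, 3.18 and 2.50 CPM with 9,10-dibutoxyanthracene and 19.2, 30.2 and 53.5 CPM in the control. The phenetole flasks lay above those given 9,10-dibutoxyanthracene without overlap, and the control lay between and overlapped phenetole. The difference was 34.7-fold (log2 -5.21 ± 0.54, SE, adjusted p = 3.1e-06). On the numbered sides of the run, Trisim1_002005 and Trisim1_002014 did not pass the test (adjusted p = 0.063 and 0.573).

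The run from Trisim1_006105 to Trisim1_006112 had log2 values between -3.48 and -0.995 at day 3, with a median of -1.80 and edgeR adjusted p between 7.9e-06 and 0.0244. All 8 models were also lower at day 1, beside 23.6% of all loci tested, with a median of -1.85. Against the control at day 3, 5 were lower with 9,10-dibutoxyanthracene, beside 10.8% of all loci, and 1 was higher with phenetole, beside 1.52%. This run follows the 3 models Trisim1_006099 to Trisim1_006101 described above, separated from them by Trisim1_006102, which was higher, and by Trisim1_006103 and Trisim1_006104, which did not pass the test at day 3 (adjusted p = 0.144 and 0.643). Trisim1_000288, the abundant locus described above, begins a lower run of 6 models that ends with Trisim1_000293.

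**Figure D5:**
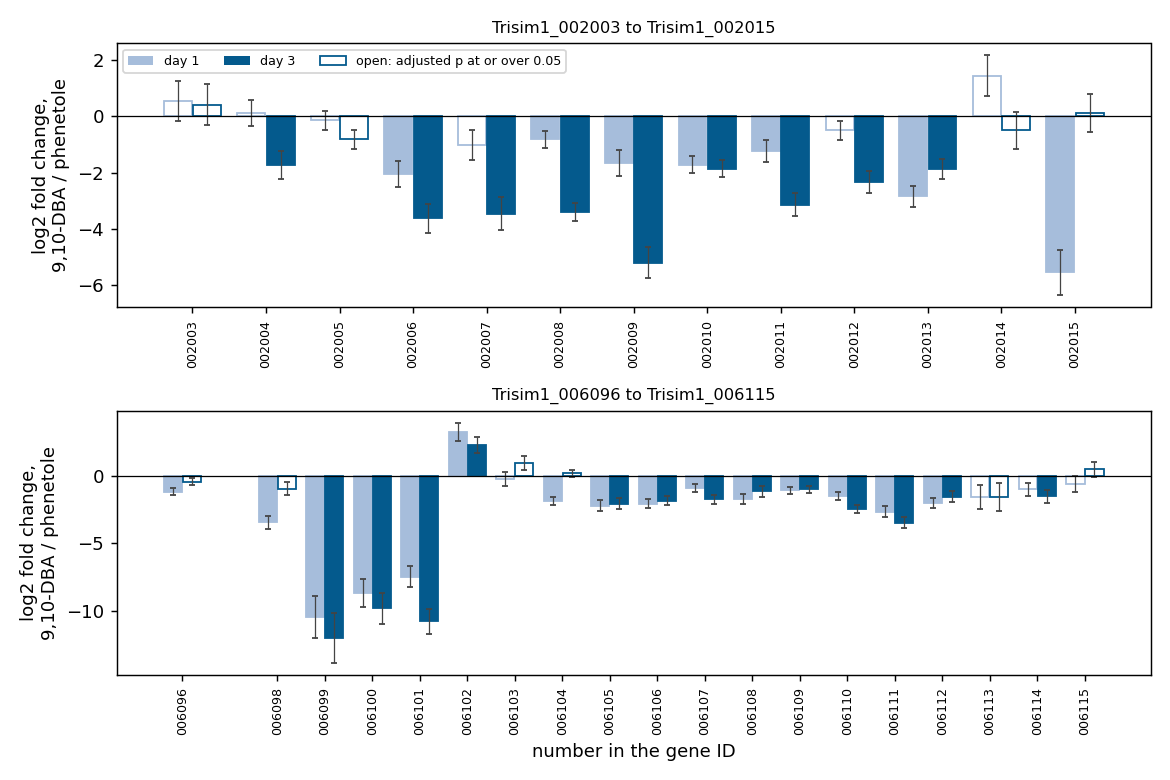
Log2 fold change of 9,10-dibutoxyanthracene (9,10-DBA) over phenetole, with SE bars, for consecutively numbered models around the 2 longest lower runs, at day 1 (pale) and day 3 (dark), with open bars where the adjusted p was at or over 0.05. The dark bars of Trisim1_002006 to Trisim1_002013 and of Trisim1_006105 to Trisim1_006112 all point down, and Trisim1_006102 points up beside the deep bars of Trisim1_006099 to Trisim1_006101.

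The longest higher runs had 6 models each and numbered 3. The run from Trisim1_004033 to Trisim1_004038 had a median log2 value of 4.13 at day 3, the run from Trisim1_006617 to Trisim1_006622 one of 4.23 and the run from Trisim1_006501 to Trisim1_006506 one of 2.48. Against the control at day 3, 3, 4 and 2 of the 6 models in these runs were higher with 9,10-dibutoxyanthracene, beside 5.24% of all loci tested, and 1, 0 and 0 were lower with phenetole, beside 1.9%. At day 1, 1, 4 and 1 of the 6 models were higher with 9,10-dibutoxyanthracene than with phenetole and 1, 1 and 2 were lower, beside 24.2% and 23.6% of all loci. With 6 models a run, most of these day 1 counts are near the share over all loci.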

How the data were processed

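RNA of 24 mycelium samples from flask cultures was sequenced as poly-A libraries with paired reads of 150 bp, per the labels' protocols. The authors deposited raw read counts per locus and, in a separate table, FPKM. The counting tool was featureCounts 1.5.0-p3, per the submitters' processing notes. The sources used here do not give the aligner, the genome build or the use of strand. Locus lengths were recovered from the deposited counts and FPKM, and all 12728 were whole numbers within 0.01.

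The analysis used edgeR 4.0.16 under R 4.3.3. Low loci were filtered with filterByExpr at a minimum count of 10 and scaled by TMM, and all 24 libraries entered a single fit with 1 coefficient for each of the 8 groups, which share the estimate of the spread. Contrasts were tested with two-sided quasi-likelihood F tests and Benjamini-Hochberg adjustment over the 10842 loci of each contrast and a threshold of 0.05. The SE of a fitted log2 value was derived from this test, as the size of the value divided by the square root of its F statistic. Folds are ratios of summed counts scaled by library size. Against a group at 0 they are lower bounds for which the group total was set to 3 counts (the floor), and fitted log2 values of such loci depend on the prior count. Floors and intervals cover counting error only. Alternatives were DESeq2 1.42.0, limma 3.58.1 on log2 FPKM, other scalings and filters, a fit to the compared groups only, a replicate block and leaving out each flask. The alternatives for calls of opposite direction, for the control time lists, for loci outside the models, for bounds, and for named loci against the control, at day 1 and between days were chosen after seeing the data. The method was also run on simulated data with 200 loci changed at day 3 and none at day 1. Far more loci were called here, so that run does not cover changes of this extent.

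At most 2 loci in each direction were named per result: those with the largest fitted fold, those with the largest difference in CPM, those with the largest mean fitted fold over both days, and those with the largest fitted change between days. Named loci were called and had non-overlapping flasks at day 3, and for all but the abundant loci at least 10 counts in every flask of the higher group. Loci named for both days had to meet all of these conditions at day 1 as well. Those named for the change between days also had to pass that test. The longest runs of consecutively numbered models were also named, and Trisim1_002009 and Trisim1_006102 were added after their values were seen. The groups compared, the lists and the rules were chosen with earlier results of these data known. No gene names or sequences were used here.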

Additional observations from a re-analysis of the deposited data

Results flagged for a closer look

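Several results stood out because the difference between 9,10-dibutoxyanthracene and phenetole was not the same at both days, by edgeR's test of the difference between days. This held for 4665 of 10842 loci. Among the named loci, the fitted log2 change from day 1 to day 3 was 7.17 for Trisim1_011497, 6.07 for Trisim1_009042, -3.32 for Trisim1_006101 and -9.71 for Trisim1_009499. It was 9.73 for Trisim1_003216, 17.27 for Trisim1_005936, 12.85 for Trisim1_002681 and -10.21 for the locus of 950 bp outside the gene models. Each of these last 4 had a group at 0 counts, so their fitted values depend on the prior count and are no measure of size.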

How the results depend on the processing

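The number of loci called at day 3, 4242, ranged from 3109 to 3714 when a flask of the compared groups was left out and from 3925 to 4851 under the other settings. At day 1 the ranges were 4282 to 5073 and 3859 to 5501. The difference between days was called at 4075 to 4959 and 4367 to 4948 loci, and the same direction at both days at 854 to 1187 and 1105 to 1310. The higher share of the day 3 calls was 48.7% and lay between 46.2% and 53.9%, so which direction held more loci changed with the setting. With the flask number as a replicate block, 4620 loci were called at day 3, 5501 at day 1, 4948 between days and 1259 in the same direction at both. A separate pairing correlation was computed for same-numbered flasks, a different measure from the correlation of flasks over loci given above. For the compared groups it was 0.02, -0.02 and 0.10 at day 3 and 0.127, 0.026 and 0.078 at day 1. Between days the values were -0.03, -0.082 and 0.036 for phenetole. For the compound set against phenetole they were 0.165, 0.002 and 0.103. On this measure same-numbered flasks correlated best for flask 3 at day 3. They did so for flasks 1 and 3 at day 1, and between days for that compound, but for no phenetole flask between days. For flask 3 at day 1 the margin was small, 0.078 against 0.077. These values do not settle whether the numbers pair the samples, and the main fit treated the samples as separate.

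Total counts differed by 390828 between the group means, and by -195300 to 801100 when a flask was left out; the cause was not tested. Of 577 alternative values for 45 results of named loci, 543 kept their direction and their status as called or not called. Another 33 lost the call, 1 gained it and 0 changed direction. The 543 include results never called, such as all 20 alternatives for the change of Trisim1_006100 between days. Settings under which a locus was filtered out or DESeq2 gave it no adjusted p are not among these values. On log2(FPKM + 1) the folds of rare loci were smaller, as for Trisim1_005936 at day 3 with 1.42. Depth limits the loci with few counts, such as Trisim1_002681.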
